A study of Homo sapiens with 12 samples.

Results

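Of 19775 genes measured on 12 Affymetrix expression arrays, 84 belonged to the nuclear-encoded mitochondrial respiratory chain and ATP synthase. They were chosen by gene symbol: the platform's probe sets that name 1 gene only were taken where the current symbol begins with the names given to subunits of complexes I to V, without pseudogenes and without the NDUFAF assembly factors. The symbol rule itself uses no measured value, although it was set with earlier results of these data known. It gave 160 probe sets, and 46 of the 84 genes had more than 1. Of the 84 genes, 76 encode subunits: 33 of complex I, 3 of complex II, 6 of complex III, 17 of complex IV and 17 of complex V. The other 8 met the symbol rule without being subunits: the complex II assembly factors SDHAF1, SDHAF2, SDHAF3 and SDHAF4, the ATP synthase inhibitor ATP5IF1, and the non-coding RNAs NDUFB2-AS1, NDUFV1-DT and NDUFV2-AS1. Subunits such as SDHB and UQCRFS1, and the gene now named COXFA4, were not analysed here.

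The respiratory chain sits in the inner mitochondrial membrane. Complex I takes electrons from NADH and complex II takes them from succinate, both pass them to ubiquinone, complex III moves them on to cytochrome c, and complex IV hands them to oxygen. The proton gradient built on the way drives complex V, the ATP synthase. Most subunits are encoded in the nucleus and joined in the organelle to a small core made from mitochondrial DNA. Nuclear respiratory factor NRF1, ETS factors of the GABP type and YY1 are known for binding the promoters of many of these nuclear genes.

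The arrays fell into 4 groups of 3. MMS1 and RPMI8226 are labelled as multiple myeloma lines, a cancer of plasma cells. Cells of each line carried a stably integrated lentivirus with GFP and either a miR-16 sponge, a transcript with binding sites that draw the microRNA away from its targets, or a mock sponge as control. All groups, controls included, were therefore transduced with GFP, sorted by flow cytometry and expanded, and were then grown for a week and lysed together. The sponge groups are called knock down or KO in the labels, although no gene was deleted, and the level of miR-16 itself was not analysed here. The stated aim was to imitate the fall in miR-16 seen with loss of 13q in myeloma. No label says which flask an array came from, so the p-values measure only the spread between these arrays, which may be technical.

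The mature microRNA against which the sponge is directed is shown with its seed, bases 2 to 8 from the 5′ end, in capitals, because the seed sets which transcripts it can pair with. It is made from MIR16-1 at chr13:50049027-50049048 on the minus strand and from MIR16-2 at chr3:160404754-160404775 on the plus strand, and the letters are the same in both (RefSeq, GRCh38.p14).
hsa-miR-16-5p: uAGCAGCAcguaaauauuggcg

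Promoters are shown for 3 members whose values are described further on: SDHA and ATP5F1C, which were lower with the sponge in MMS1, and NDUFV2, which was higher. Each is the 250 bases before the annotated start on the plus strand, from RefSeq with the build GRCh38.p14, at chr5:218070-218319, chr10:7787927-7788176 and chr18:9102449-9102698 in turn. Capitals mark each match to the letters of the NRF1 motif, which read GCGC, then A, any base, and GCGC again, or on the other strand GCGC, any base, T and GCGC. A site that matches on both strands counts as 1.
SDHA: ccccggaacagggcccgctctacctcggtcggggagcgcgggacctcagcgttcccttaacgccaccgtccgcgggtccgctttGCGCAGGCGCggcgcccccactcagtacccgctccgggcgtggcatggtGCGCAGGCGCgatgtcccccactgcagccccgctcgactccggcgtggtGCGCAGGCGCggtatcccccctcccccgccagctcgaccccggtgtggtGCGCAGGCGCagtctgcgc
ATP5F1C: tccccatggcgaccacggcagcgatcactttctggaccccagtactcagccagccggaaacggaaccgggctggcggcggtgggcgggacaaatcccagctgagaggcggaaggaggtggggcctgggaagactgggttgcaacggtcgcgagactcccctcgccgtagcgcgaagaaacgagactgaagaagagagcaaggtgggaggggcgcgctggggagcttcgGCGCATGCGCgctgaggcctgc
NDUFV2: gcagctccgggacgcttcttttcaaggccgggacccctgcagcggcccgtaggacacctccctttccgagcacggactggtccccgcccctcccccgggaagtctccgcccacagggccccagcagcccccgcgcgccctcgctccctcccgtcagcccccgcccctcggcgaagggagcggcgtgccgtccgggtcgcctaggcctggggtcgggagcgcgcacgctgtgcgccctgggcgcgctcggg

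The SDHA promoter held 4 such matches, that of ATP5F1C held 1 and that of NDUFV2 held 0. Over windows of 300 bases, from 250 before to 50 after the start, 65 of the 76 subunits had an entry. The NRF1 letters were in 16 of the 65, or 24.6%, against 6.98% of 27305 genes with a promoter in the same table. The ETS letters CCGGAAGT or ACTTCCGG were in 11 of the 65, or 16.9%, against 4.95% of all, and the YY1 letters AAGATGGC or GCCATCTT were likewise in 11, against 3.52% of all. Split by what the subunits did in MMS1, the NRF1 letters were in 1 of 9 promoters of subunits that rose, in 2 of 5 of those that fell and in 13 of 51 of those that were not called. For the ETS letters, and likewise for the YY1 letters, these counts were 2 of 9, 1 of 5 and 8 of 51. Groups of 9 and 5 are too small to read a direction from. A match is a description of the letters only.

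Signals are on the log2 scale as the authors deposited them, with a lower bound of 4. Each gene is represented by its brightest single-gene probe set, and signals of different probe sets are not compared as levels. The respiratory chain genes gave bright signals: 79 of 84 lay above the median probe set of the array, which had a mean of 5.83, and the 84 means ran from 4.21 to 12.46. Several of the dim probe sets belong to isoforms known from heart, muscle, lung or testis. The mean over 12 arrays was 4.21 ± 0.21 (SD) for COX8C, 5.27 ± 0.22 for COX7A1, 5.85 ± 0.26 for COX6A2, 6.17 ± 0.19 for COX7B2 and 6.34 ± 0.19 for COX6B2. The widely expressed partners COX8A, COX7A2, COX6A1 and COX6B1 had means of 11.88, 11.84, 12.46 and 11.24 on their own probe sets, which do not give the ratio of partner to isoform. COX4I2, the lung-type form of subunit IV, had 8.21 ± 0.12 and COX4I1 had 12.42 ± 0.10. None of the 6 tissue-limited isoforms was called in any comparison in the fit of all 12 arrays. COX6A2 was called higher with the sponge in MMS1 when MMS1 control replicate 3 was left out. The single-gene probe set of ATP5MF, a membrane subunit of the ATP synthase, lay at 4.32 ± 0.25, near the lower bound, and gives little information on that gene.

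The labelled cell type and the arrays themselves bear on what follows. Of 14 plasma cell markers the 3 dimmest, TNFRSF17, JCHAIN and CD38, had means of 4.46, 4.20 and 4.91, at or near the lower bound. The other 11 had means of 5 or more, SDC1 and XBP1 being brightest at 8.90 and 8.51, and the median of the 14 was 6.46. In the upper quartile of genes lay 2 of the 14. The erythroid genes HBE1 and GATA1 had 14.16 and 9.56, and 8 of 9 measured erythroid markers lay in the upper quartile of genes. The summed linear signal of the erythroid list was 41582 to 43286 in MMS1 control arrays and 25464 to 26729 in MMS1 sponge arrays. It was 32537 to 33256 in RPMI8226 control arrays and 26651 to 27016 in RPMI8226 sponge arrays. Most of these sums came from 2 globins, HBE1 and HBZ, with 38038 to 39564 and 22136 to 23793 in MMS1 and 27926 to 28596 and 22074 to 22613 in RPMI8226. The other 7 measured markers summed to 3544 to 3814 in MMS1 controls and 2928 to 3328 with the sponge, and to 4459 to 4674 and 4152 to 4577 in RPMI8226, where the groups overlapped. The erythroid sum was thus lower with the sponge in both lines, mainly through these globins, beside every result given here, and its part in them was not tested. In such bulk RNA, fewer cells of a type and less RNA per cell cannot be told apart. The array of MMS1 sponge replicate 1 had an 18S control signal of 7.84, against 9.56 to 11.14 on the 11 other arrays, and the results are given without it where that matters.

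In MMS1, the sponge went with higher signals for 10 respiratory chain genes and lower signals for 6. Those that rose included NDUFV1, NDUFV2 and NDUFV3 of complex I, UQCRB and UQCRC1 of complex III, COX7B and COX7C of complex IV, and ATP5PD and ATP5MK of complex V. Those that fell were NDUFS1, NDUFA7 and NDUFA10 of complex I, SDHA of complex II with its assembly factor SDHAF2, and ATP5F1C of complex V. The changes were small, from 1.24-fold to 1.41-fold for the genes that rose and from 0.665 to 0.801 of the control signal for those that fell. A call here means an adjusted p under 0.05 in limma, where p-values were adjusted by Benjamini-Hochberg across all 54613 probe sets.

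These 16 calls were 19.0% of the 84 genes. Over all probe sets 10.3% were called and over all genes, taken the same way, 12.4%. Respiratory chain genes are bright, and among 1647 genes with a mean signal of at least 9 the share called was 24.2%, so that the count is no higher than for bright genes at large. Of the 76 subunits 10 were called higher and 5 lower. Of all genes 4.34% were called higher and 8.08% lower, and of the bright genes 195 and 204 in number. The split depended on scaling: after quantile normalization it was 8 higher and 8 lower over the 84 genes. Estimates lay above 0 for 53 of the 76 subunits, with a median of 0.13 on the log2 scale, and for 47 with a median of 0.07 after quantile normalization. Over all genes the median was -0.04, and 0.02 over the bright genes. The 3 sponge arrays lay all above the 3 controls for 32 subunits and all below for 14, or 42.1% and 18.4%, against 12.3% and 18.8% of all genes and 27.3% and 24.7% of bright genes.

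By complex, all 6 complex III subunits had estimates above 0, with a median of 0.28 (5 of 6 and 0.20 after quantile normalization), and 2 rose. In complex IV 13 of 17 estimates lay above 0 with a median of 0.18 (0.11 after quantile normalization), and 2 rose. In complex V 14 of 17 lay above 0 with a median of 0.16 (0.08 after quantile normalization), and 2 rose and 1 fell. Complex I was split, with 18 of 33 estimates above 0, a median of 0.03 (-0.01 after quantile normalization), and 4 genes that rose against 3 that fell. The difference between complexes was not tested.

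**Figure D1:**
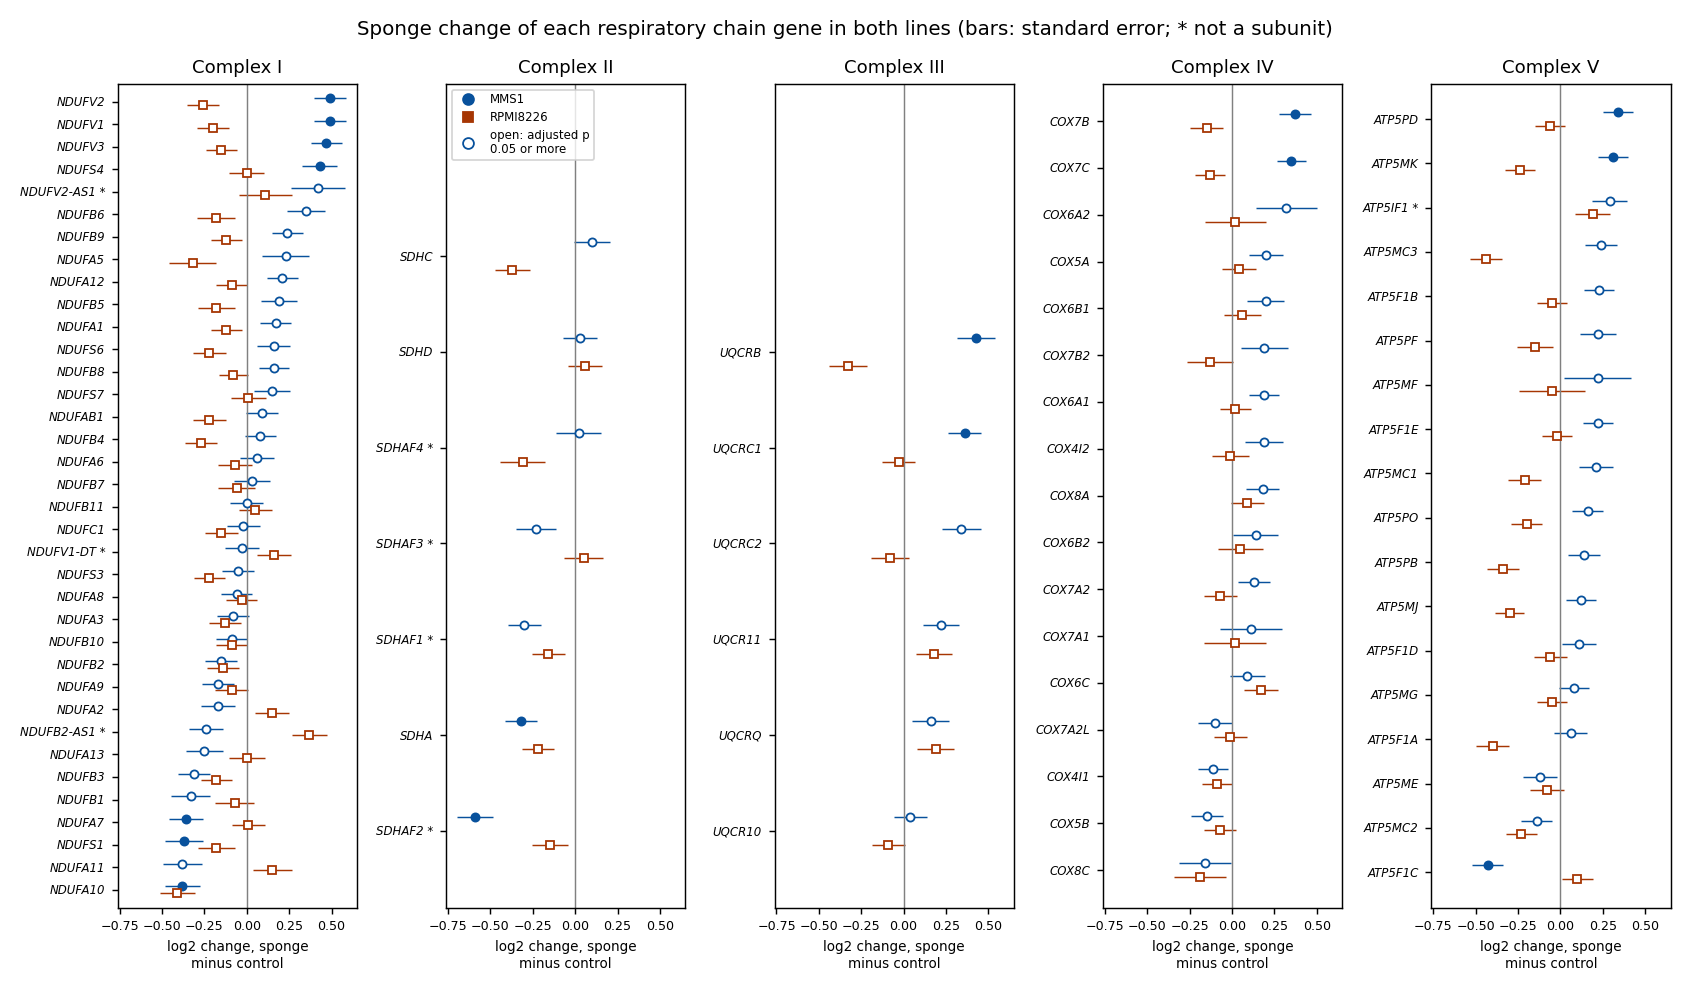
Change with the miR-16 sponge (log2 sponge minus control, horizontal axis) of each of the 84 genes, in 1 panel per complex, in MMS1 (circles) and RPMI8226 (squares). Bars are standard errors, filled points have an adjusted p under 0.05 and asterisks mark the 8 genes that are not subunits. The filled points are the 16 MMS1 calls; 0 RPMI8226 points are filled.

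Complex I takes up NADH at the tip of its arm in the matrix, the NADH module. Its 10 measured subunits were grouped after their values had been seen. Of these 4 rose, 2 fell and 4 were not called in MMS1, whereas of the 20 subunits outside the NADH and ubiquinone modules 1 fell and 19 were not called. Of all genes 12.4% were called in MMS1, and of bright genes 24.2%. The contrast depends on the threshold: 7 of the 10 and 7 of the 20 had an unadjusted p under 0.05 in limma. Among the 20, NDUFA11, NDUFB3 and NDUFB6 had adjusted p of 0.0527, 0.0544 and 0.0666. With brighter probe sets only, NDUFA11, NDUFB1, NDUFB3, NDUFB6 and NDUFB9 were called too, while the NADH module gained no call. With the mean over a gene's probe sets, NDUFV2 was the only call in the module. NDUFA11, NDUFB3 and NDUFB4 were then called among the 20. These are counts of chosen groups, with no test between them. The 3 measured subunits of the ubiquinone module, NDUFA5, NDUFS3 and NDUFS7, were not called.

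NDUFV1 carries the flavin that accepts electrons from NADH. Its log2 signal (probe set 208714_at) was 10.47, 10.36 and 10.45 in MMS1 control arrays and 11.02, 10.93 and 10.82 in MMS1 sponge arrays. In RPMI8226 it was 10.80, 10.77 and 10.73 in control arrays and 10.52, 10.55 and 10.61 in sponge arrays. The sponge arrays were all above the controls in MMS1 and all below them in RPMI8226. The change was 0.49 (SE 0.0932, adjusted p = 0.00389) in MMS1 and -0.20 (adjusted p = 0.363) in RPMI8226.

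NDUFV2 holds an iron-sulfur cluster next to the flavin. Its signal (202941_at) was 10.16, 10.15 and 10.06 in MMS1 control arrays and 10.75, 10.61 and 10.49 in MMS1 sponge arrays. In RPMI8226 the controls stood at 10.12, 10.11 and 10.13 and the sponge arrays at 9.83, 9.86 and 9.87. The controls of the lines overlapped, and the sponge arrays lay above them in MMS1 and below them in RPMI8226. The MMS1 change was 0.49 (SE 0.0954, adjusted p = 0.00479), and it was called in every alternative run, as was that of SDHAF2 alone among the other 15 genes.

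NDUFV3 is a small accessory subunit of the same module. Its signal (226616_s_at) was 8.23, 8.13 and 8.31 in MMS1 control arrays and 8.70, 8.62 and 8.75 in MMS1 sponge arrays, against 8.98, 8.88 and 8.95 in RPMI8226 control arrays and 8.75, 8.84 and 8.77 in RPMI8226 sponge arrays. The MMS1 controls were thus the lowest of the 4 groups. The change in MMS1 was 0.47 (SE 0.0931, adjusted p = 0.00565).

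NDUFS4, an accessory subunit needed to join the module to the rest of the enzyme, stood at 9.78, 9.81 and 9.96 in MMS1 controls and at 10.37, 10.16 and 10.31 with the sponge. In RPMI8226 its groups overlapped, at 9.73, 9.68 and 9.71 against 9.74, 9.81 and 9.58. The MMS1 change of 0.43 (SE 0.103, adjusted p = 0.0165) was lost without MMS1 control replicate 1 or 2 (adjusted p 0.0598 to 0.0726).

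NDUFS1, the large iron-sulfur subunit that passes electrons on from NDUFV1, went the other way. Its signal (203039_s_at) was 9.46, 9.26 and 9.31 in MMS1 controls and 9.16, 8.93 and 8.83 with the sponge, and in RPMI8226 9.22, 9.35 and 9.29 against 9.16, 9.12 and 9.03. The sponge arrays lay below the controls in both lines. The MMS1 change of -0.37 (SE 0.11, adjusted p = 0.0489) was lost in 11 of the 12 fits that left out 1 array, all but that without MMS1 sponge replicate 1 (adjusted p 0.058 to 0.182).

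NDUFA7, an accessory subunit, stood at 9.02, 9.03 and 8.93 in MMS1 controls and at 8.48, 8.69 and 8.73 with the sponge, with overlapping groups in RPMI8226. The change of -0.36 (SE 0.1, adjusted p = 0.0366) was lost in 7 fits without 1 array, those of the 3 MMS1 controls, of MMS1 sponge replicates 1 and 2 and of RPMI8226 control replicates 2 and 3 (adjusted p 0.0537 to 0.115). NDUFA12 and NDUFS6, 2 more accessory subunits of the module, had estimates of 0.21 and 0.16 that did not pass (adjusted p = 0.209 and 0.372).

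**Figure D2:**
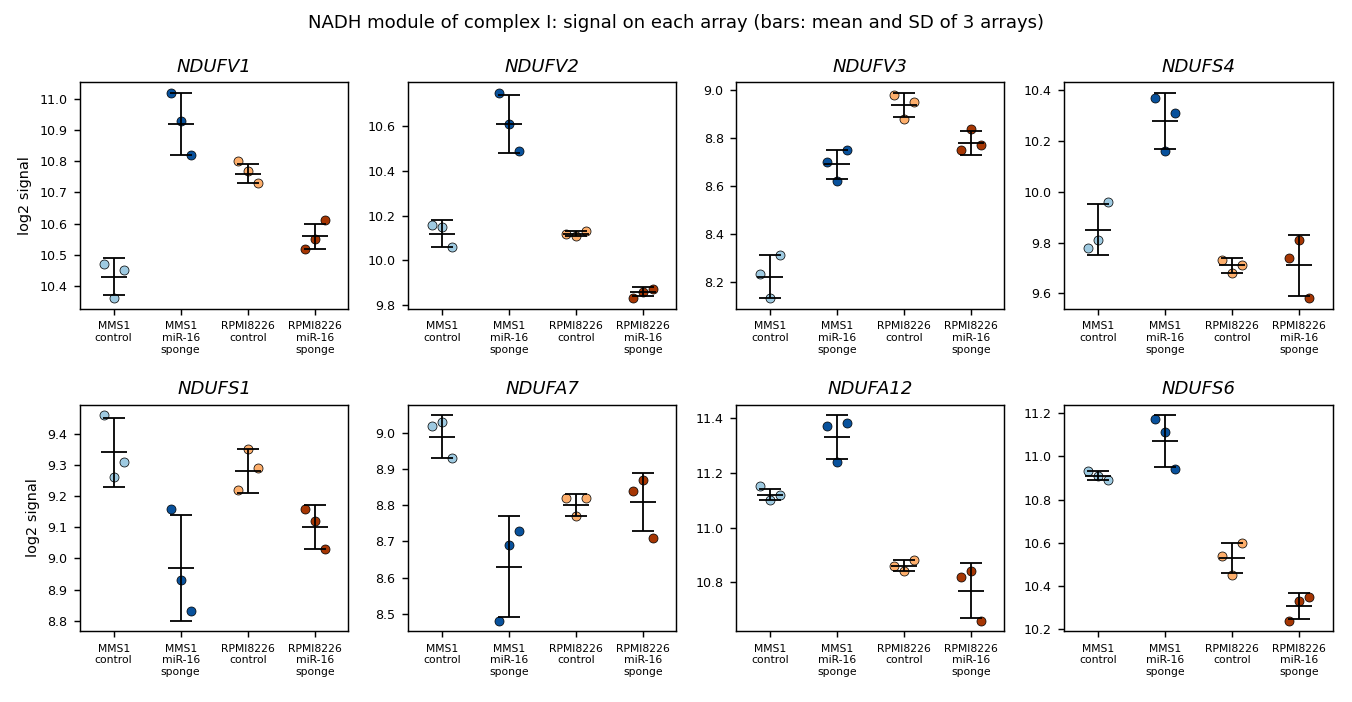
Log2 signal on each array for 8 of the 10 NADH module subunits, with 1 panel per gene and the 4 groups on the horizontal axis; points are arrays, and bars show the mean and SD of 3 arrays. In MMS1 the sponge arrays of NDUFV1, NDUFV2, NDUFV3 and NDUFS4 lie above the controls and those of NDUFS1 and NDUFA7 below; the vertical scales differ between panels and do not start at 0.

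Outside the module, NDUFA10, an accessory subunit of the membrane arm, was lower in both lines. Its signal (217860_at) was 9.55, 9.41 and 9.44 in MMS1 controls and 9.25, 9.01 and 8.99 with the sponge. In RPMI8226 it was 9.52, 9.62 and 9.54 in controls and 9.22, 9.15 and 9.08 with the sponge. The 6 sponge arrays lay below the 6 control arrays. The change was -0.38 (adjusted p = 0.0309) in MMS1 and -0.41 (adjusted p = 0.116) in RPMI8226. The MMS1 call was lost without any 1 MMS1 control array or without MMS1 sponge replicate 2 or 3 (adjusted p 0.0591 to 0.121).

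Complex II is also an enzyme of the citric acid cycle. SDHA, its flavin-bearing catalytic subunit, stood (201093_x_at) at 10.46, 10.42 and 10.46 in MMS1 controls and at 10.17, 10.19 and 10.01 with the sponge. In RPMI8226 the controls were at 9.66, 9.55 and 9.67 and the sponge arrays at 9.35, 9.46 and 9.40. The sponge arrays lay below the controls in both lines, and all RPMI8226 arrays lay below all MMS1 arrays. The MMS1 change of -0.32 (SE 0.0934, adjusted p = 0.0456) was lost in 11 of the 12 fits without 1 array, all but that without MMS1 sponge replicate 1 (adjusted p 0.0581 to 0.139). SDHA is measured by a probe set of the type that can bind related transcripts, and SDHA has pseudogenes, so its values are uncertain to that extent.

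SDHAF2 is the factor needed to attach the flavin to SDHA. Its signal (223048_at) was 7.69, 7.53 and 7.78 in MMS1 controls and 7.06, 6.95 and 7.22 with the sponge, the largest change among the 84 genes in MMS1, at -0.59 (SE 0.107, adjusted p = 0.00309). In RPMI8226 it was 7.48, 7.36 and 7.47 against 7.37, 7.25 and 7.23, overlapping, with a change of -0.15 (adjusted p = 0.573). SDHAF1 had an estimate of -0.30 in MMS1 that did not pass (adjusted p = 0.0702). The membrane anchors SDHC and SDHD were not called, with MMS1 estimates of 0.10 and 0.03.

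In complex III, UQCRB, a small subunit near the ubiquinone site, stood (205849_s_at) at 11.27, 11.30 and 11.39 in MMS1 controls and at 12, 11.67 and 11.59 with the sponge. In RPMI8226 it stood at 11.48, 11.41 and 11.49 in controls and at 11.16, 11.11 and 11.11 with the sponge. The sponge arrays were above the controls in MMS1 and below them in RPMI8226, and MMS1 sponge replicate 1 was the highest array. The MMS1 change of 0.43 (SE 0.112, adjusted p = 0.026) was lost without any 1 MMS1 control array or without MMS1 sponge replicate 1 (adjusted p 0.0505 to 0.0937).

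The core subunit UQCRC1 stood at 10.53, 10.23 and 10.43 in MMS1 controls and at 10.76, 10.74 and 10.78 with the sponge, and in RPMI8226 at 10.36, 10.30 and 10.30 against 10.30, 10.29 and 10.29. Its MMS1 change was 0.36 (SE 0.0974, adjusted p = 0.03), lost without MMS1 control replicate 2 or 3 or MMS1 sponge replicate 2 or 3 (adjusted p 0.0672 to 0.127). Its partner core subunit UQCRC2 had an estimate of 0.34 that did not pass (adjusted p = 0.0845).

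COX7B and COX7C are small subunits of cytochrome c oxidase. COX7B stood at 11.11, 11.07 and 11.17 in MMS1 controls and at 11.42, 11.49 and 11.57 with the sponge, and at 11.10, 11.17 and 11.20 against 11.12, 10.97 and 10.94 in RPMI8226. Its MMS1 change of 0.37 (SE 0.0952, adjusted p = 0.0233) was lost without MMS1 control replicate 1 or 2 or MMS1 sponge replicate 2 or 3 (adjusted p 0.0607 to 0.0822). COX7C stood at 12.18, 12.16 and 12.09 in MMS1 controls and at 12.50, 12.48 and 12.49 with the sponge, and at 12.06, 12.11 and 12.09 against 11.92, 12.01 and 11.96 in RPMI8226. Its MMS1 change of 0.35 (SE 0.0863, adjusted p = 0.0202) was lost without any 1 MMS1 control array or without MMS1 sponge replicate 2 (adjusted p 0.0515 to 0.0823). The other 15 complex IV genes were not called, COX6A1 having the next smallest p with an estimate of 0.19 (adjusted p = 0.227).

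In complex V the subunit that turns inside the catalytic head moved against most others. ATP5F1C, the gamma subunit of the central stalk, stood (213366_x_at) at 11.97, 11.87 and 12.03 in MMS1 controls and at 11.54, 11.49 and 11.55 with the sponge. In RPMI8226 it stood at 11.38, 11.49 and 11.48 in controls and at 11.61, 11.57 and 11.48 with the sponge. The MMS1 controls lay above all other arrays. The MMS1 change was -0.43 (SE 0.0924, adjusted p = 0.00917) and kept its call without any 1 array. The call was lost with the mean over the gene's probe sets and with only the 2 groups compared. The probe set shown is, like that of SDHA, of the type that can bind related transcripts, so its values are uncertain to that extent.

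ATP5PD, in the peripheral stalk that holds the head still, stood at 11.21, 11.20 and 11.26 in MMS1 controls and at 11.64, 11.56 and 11.48 with the sponge. Its change of 0.34 (SE 0.0879, adjusted p = 0.0265) was lost without any 1 MMS1 control array or without MMS1 sponge replicate 1 or 2 (adjusted p 0.0504 to 0.0849). ATP5MK, a small membrane subunit linked to dimers of the enzyme, stood at 11.15, 11.17 and 11.24 in MMS1 controls and at 11.57, 11.43 and 11.50 with the sponge. Its change of 0.31 (SE 0.0877, adjusted p = 0.0386) was lost in 11 of the 12 fits without 1 array, all but that without RPMI8226 sponge replicate 3 (adjusted p 0.0525 to 0.127). Without MMS1 sponge replicate 1, the array with the low 18S signal, 7 of the 84 genes were called higher in MMS1 and 6 lower. Of all 54613 probe sets 1725 were then called higher and 3845 lower, against 2296 and 3339 in the fit of all 12 arrays.

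**Figure D3:**
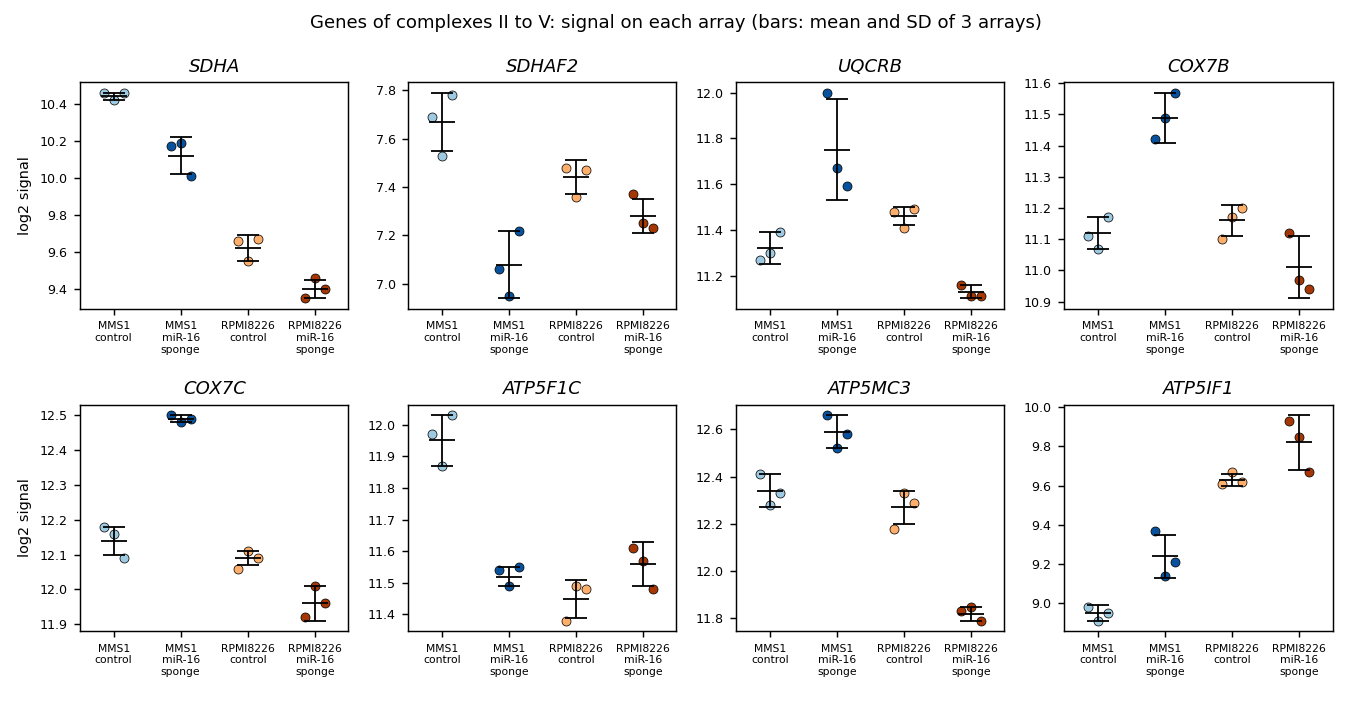
Log2 signal on each array for 8 genes of complexes II to V, with 1 panel per gene and the 4 groups on the horizontal axis; points are arrays and bars show the mean and SD of 3 arrays. SDHA and ATP5IF1 separate the lines, SDHAF2 and ATP5F1C are lower in MMS1 sponge arrays, and UQCRB, COX7C and ATP5MC3 lie above the controls in MMS1 sponge arrays and below them in RPMI8226 sponge arrays, and COX7B lies above them in MMS1 and overlaps them in RPMI8226; the vertical scales differ and do not start at 0.

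Genes with several probe sets did not always speak alike. The 3 bright probe sets of ATP5F1C gave MMS1 changes of -0.43, -0.43 and -0.42, and these sets can share probes, while 214132_at, with a mean of 7.22, gave 0.43 (adjusted p = 0.109). For COX7C, 213846_at gave 0.54 (adjusted p = 0.00316), the same direction as the brightest set. For NDUFS1 the dimmer 236356_at gave -0.90 (adjusted p = 0.00282), while 239268_at gave 0.04. For NDUFV1 and NDUFV3 the second probe sets were dim, with means of 4.94 and 5.84, and gave 0.10 and -0.22, neither called. The mean over a gene's probe sets ended the MMS1 calls of NDUFV1, NDUFV3, NDUFS4, NDUFS1, NDUFA7 and NDUFA10. Those of UQCRB, COX7B, ATP5PD and ATP5F1C ended too.

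In NDUFB4, an accessory subunit of the membrane arm, only the dimmer probe set was called. Its bright probe set gave 0.08 (adjusted p = 0.705), whereas 228940_at, with a mean of 5.80, gave 1.11 (SE 0.126, adjusted p = 8.6e-05) and a difference between lines of -1.49 (adjusted p = 0.000315). Similarly, dim probe sets of NDUFA6 (202000_at) and UQCR11 (223613_at) gave -0.48 and -0.40 (adjusted p = 0.0209 and 0.0147) where the bright sets gave 0.06 and 0.22 and were not called. The probe sets of NDUFA10 lay furthest apart among the 84 genes in MMS1, with 227206_at at -0.53 (adjusted p = 0.0303) and 1554719_at at 0.57 (adjusted p = 0.0513). Which transcript each of these dim probe sets reads was not tested.

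**Figure D4:**
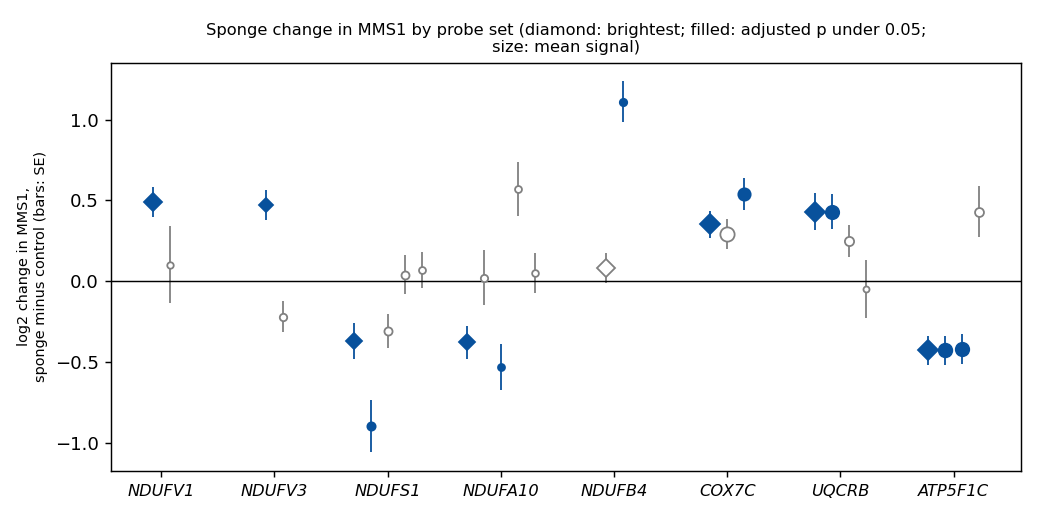
MMS1 sponge change (log2, vertical axis, bars are standard errors) for every probe set of 8 genes; diamonds mark the brightest probe set, filled points have an adjusted p under 0.05 and the point size follows the mean signal. The probe sets of NDUFB4 stand at 0.08 and 1.11, and the 3 bright sets of ATP5F1C lie together at -0.43, -0.43 and -0.42.

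In RPMI8226, none of the 84 genes passed the test in the fit of all 12 arrays by limma, and 21 had an unadjusted p under 0.05, or 25.0%, against 14.3% of all genes and 30.7% of bright genes. The comparison called few genes of any kind, 0.196% of all probe sets and 0.217% of all genes, with 0.0152% of genes higher and 0.202% lower. Most estimates were below 0, for 58 of the 76 subunits with a median of -0.09, and for 43 with a median of -0.03 after quantile normalization. Bright genes at large had the same median of -0.09, with 68.5% below 0. The 3 sponge arrays lay all below the 3 controls for 35 subunits, or 46.1%, against 45.2% of bright genes and 17.1% of all genes. They lay all above for 3, or 3.95%, against 12.5% of bright genes and 7.79% of all genes. The RPMI8226 median and the share all below were thus near those of bright genes on these arrays, while the share all above was lower.

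The smallest p among the 84 belonged to ATP5MC3, which encodes the ring of c subunits that the protons turn. Its signal (207507_s_at) was 12.18, 12.33 and 12.29 in RPMI8226 controls and 11.83, 11.85 and 11.79 with the sponge, a change of -0.44 (SE 0.0928, adjusted p = 0.0732). In MMS1 it was 12.41, 12.28 and 12.33 against 12.66, 12.52 and 12.58, a change of 0.24 (adjusted p = 0.131). ATP5F1A, the alpha subunit of the head, and ATP5PB, of the peripheral stalk, had estimates of -0.40 and -0.34 (adjusted p = 0.111 and 0.146). SDHC had -0.37 (adjusted p = 0.148) and UQCRB -0.33 (adjusted p = 0.216). In complex IV 0 of 17 genes had an unadjusted p under 0.05.

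The threshold matters in RPMI8226. With only probe sets brighter than the median in the adjustment, 6 genes were called lower: ATP5F1A, ATP5MC3, ATP5MJ, ATP5PB, NDUFA10 and SDHC, beside 3.98% of the probe sets then tested. Without MMS1 sponge replicate 1, which enters only through the shared estimate of the spread, ATP5MC3 and NDUFA10 were called lower, beside 1.17% of probe sets.

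**Figure D5:**
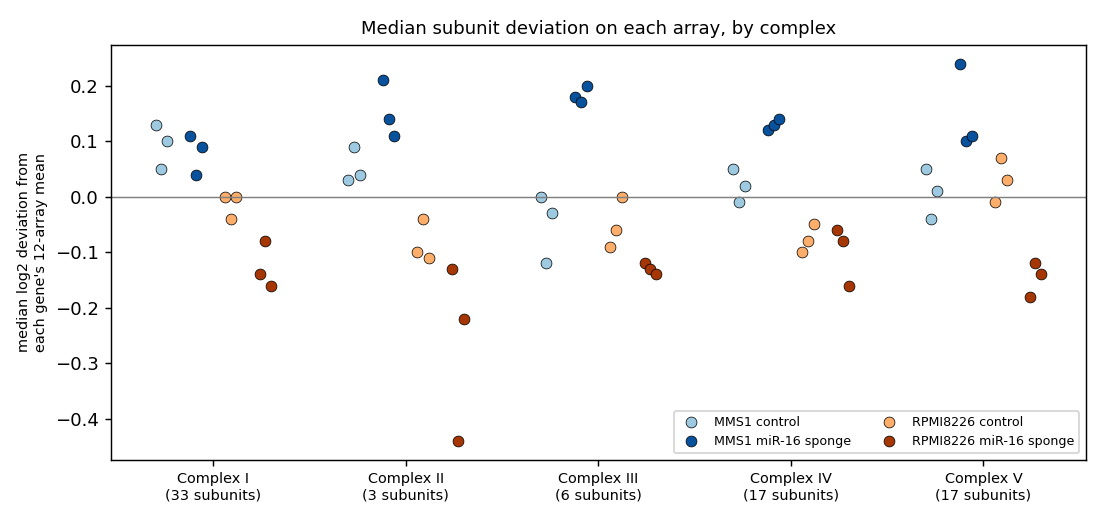
Median over the subunits of each complex of the deviation from each gene's own mean over 12 arrays (log2, vertical axis), with 1 point per array and colours for the 4 groups. For complex III the MMS1 control arrays stand at -0.12 to 0.00 and the MMS1 sponge arrays at 0.17 to 0.20, while the RPMI8226 sponge arrays stand at -0.14 to -0.12.

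Summed up by array, the median deviation of the 76 subunits was -0.01 to 0.06 in MMS1 controls and 0.11 to 0.13 in MMS1 sponge arrays, and the groups did not overlap. In RPMI8226 it was -0.05 to 0.00 in controls and -0.16 to -0.09 in sponge arrays. Complex V had -0.04 to 0.05 in MMS1 controls, 0.10 to 0.24 in MMS1 sponge arrays, -0.01 to 0.07 in RPMI8226 controls and -0.18 to -0.12 in RPMI8226 sponge arrays. Complex I did not separate the MMS1 groups, at 0.05 to 0.13 in controls and 0.04 to 0.11 with the sponge. These medians use the deposited scaling, and quantile normalization narrows them as given for the estimates.

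The test of the difference between the lines' sponge changes, RPMI8226 minus MMS1, called 10 of the 84 genes, or 11.9%, against 5.90% of all genes (2.63% positive and 3.27% negative) and 14.9% of bright genes. Of these 8 were more negative in RPMI8226: NDUFV1 at -0.70 (adjusted p = 0.00815), NDUFV2 at -0.75 (0.00583), NDUFV3 at -0.62 (0.016), UQCRB at -0.76 (0.0141), ATP5MC3 at -0.69 (0.00878), ATP5MK at -0.55 (0.0218), COX7B at -0.52 (0.0426) and COX7C at -0.47 (0.0414). In NDUFV1, NDUFV2, NDUFV3, UQCRB, COX7C, ATP5MC3 and ATP5MK every sponge array was above the controls in MMS1 and below them in RPMI8226. ATP5F1C at 0.53 (adjusted p = 0.0335) and NDUFB2-AS1 at 0.61 (0.0257) were more positive in RPMI8226. After quantile normalization the split was 6 more negative and 3 more positive.

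NDUFB2-AS1 is a non-coding RNA named for lying opposite the complex I gene NDUFB2. Its dim probe set (222090_at) stood at 5.86, 5.67 and 5.68 in MMS1 controls and at 5.57, 5.43 and 5.48 with the sponge, and at 5.36, 5.43 and 5.52 against 5.71, 5.84 and 5.88 in RPMI8226. The array values run in opposite directions in the lines without overlap.

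Of the 10 differences, those of NDUFV1, NDUFV2, NDUFV3, UQCRB and ATP5MC3 kept their call without any 1 array. With the mean over a gene's probe sets, NDUFV1, NDUFV3, UQCRB and ATP5MC3 lost it, and the difference of NDUFV2 held in every alternative run. That of ATP5MK was lost without MMS1 control replicate 1 or 2, RPMI8226 control replicate 2 or 3 or RPMI8226 sponge replicate 2 (adjusted p 0.0512 to 0.0611). COX7B lost it in 10 of the 12 fits, all but those without MMS1 sponge replicate 1 or RPMI8226 sponge replicate 1 (0.0651 to 0.101), and COX7C in 11, all but that without MMS1 sponge replicate 1 (0.061 to 0.0977). ATP5F1C lost it in 8, all but those without MMS1 control replicate 2, MMS1 sponge replicate 1 or 3 or RPMI8226 sponge replicate 3 (0.063 to 0.0837). NDUFB2-AS1 lost it in 6, without MMS1 control replicate 1, MMS1 sponge replicate 2, RPMI8226 control replicate 1 or 2 or RPMI8226 sponge replicate 2 or 3 (0.0583 to 0.0729).

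Averaged over both lines, 5 of the 84 genes fell with the sponge and 0 rose, while 17.2% of bright genes and 8.84% of all genes were called, 2.24% of all genes higher and 6.60% lower. The 5 were NDUFA10 at -0.40 (adjusted p = 0.00531), SDHAF2 at -0.37 (0.01), SDHA at -0.27 (0.0257), NDUFB3, a membrane arm subunit of complex I, at -0.25 (0.04) and NDUFS1 at -0.28 (0.0495). NDUFB3 stood at 10.19, 10.27 and 10.31 in MMS1 controls and 9.98, 9.96 and 9.90 with the sponge, and at 10.25, 10.28 and 10.43 against 10.17, 10.15 and 10.09 in RPMI8226. The sponge arrays of NDUFB3 lay below the controls in both lines. By quantile normalization 2 genes, ATP5IF1 and NDUFS4, were called higher and 6 lower.

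NDUFA10 and SDHAF2 kept the averaged call without any 1 array, but NDUFA10 lost it with the mean over its probe sets. NDUFB3 and NDUFS1 lost it in 11 of the 12 fits, all but that without MMS1 sponge replicate 1 (adjusted p 0.0551 to 0.105 and 0.0611 to 0.124). SDHA lost it in 7, without replicate 1 or 3 of MMS1 control, RPMI8226 control or RPMI8226 sponge, or without MMS1 sponge replicate 3 (adjusted p 0.0529 to 0.0674).

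With the control sponge, the lines differed in 9 of the 84 genes, or 10.7%, against 10.3% of all genes (6.52% higher and 3.80% lower in RPMI8226) and 23.7% of bright genes. RPMI8226 was higher than MMS1 in NDUFV3 by 0.71 (adjusted p = 0.000314), in ATP5IF1 by 0.69 (0.000874), in ATP5F1D, the delta subunit of the central stalk, by 0.39 (0.0258) and in NDUFV1 by 0.34 (0.0421). It was lower in SDHA, at -0.82 (adjusted p = 0.000101), ATP5F1C at -0.50 (0.00413), NDUFA2 at -0.45 (0.0152), NDUFS6 at -0.38 (0.0289) and NDUFB4 at -0.36 (0.0279). Of these, 4 are among the 10 measured NADH module subunits, which were grouped after their values had been seen. NDUFV1 and NDUFV3 were higher and NDUFA2 and NDUFS6 lower, and the module was not tested as a group. After quantile normalization 3 genes were called higher and 8 lower.

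ATP5IF1, which blocks the ATP synthase from running backwards, stood at 8.98, 8.91 and 8.95 in MMS1 controls and at 9.61, 9.67 and 9.62 in RPMI8226 controls. Its 3 probe sets gave 0.69, 0.71 and 0.62, and all 3 were called. With the sponge it stood at 9.37, 9.14 and 9.21 in MMS1 and at 9.93, 9.85 and 9.67 in RPMI8226, and the MMS1 change of 0.29 did not pass (adjusted p = 0.095). SDHA was 0.566 of the MMS1 level in RPMI8226 controls. The calls of NDUFV3, ATP5IF1, SDHA and ATP5F1C held in every alternative run.

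The remaining calls between the control groups lay near the threshold. ATP5F1D, NDUFS6 and NDUFB4 each lost the call without any 1 of the 6 control arrays (adjusted p 0.0557 to 0.109, 0.0587 to 0.117 and 0.0578 to 0.101). NDUFA2 lost it without MMS1 control replicate 1 or 3 or RPMI8226 control replicate 2 or 3 (0.0553 to 0.0667). NDUFV1 lost it in 10 of the 12 fits, all but those without MMS1 sponge replicate 1 or 3 (0.0521 to 0.149).

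The subunits made from mitochondrial DNA were measured for 7 genes. ND6 rose in MMS1, from 9.0, 8.94 and 8.75 in controls to 10.32, 9.36 and 9.75 with the sponge, a change of 0.91 (SE 0.196, adjusted p = 0.00886). The highest of these values was that of MMS1 sponge replicate 1, and without it the change was 0.66 (adjusted p = 0.0192). ND6 lies on the opposite strand to the other mitochondrial protein genes. COX1 stood at 13.51, 13.55 and 12.65 in MMS1 controls and 14.01, 13.84 and 13.77 with the sponge, and at 12.88, 13.48 and 13.47 against 13.88, 13.96 and 14.08 in RPMI8226. Its sponge arrays lay above the controls in both lines, by 0.63 and 0.69, called in neither (adjusted p = 0.0956 and 0.191). Averaged over both lines COX1 rose by 0.66 (adjusted p = 0.0214), a call lost without RPMI8226 sponge replicate 3 (0.0521), and ND6 by 0.70 (adjusted p = 0.00863), called without any 1 array. In RPMI8226, COX2, ATP6 and ND4 had estimates of -0.38, -0.34 and -0.27 that did not pass (adjusted p = 0.118, 0.206 and 0.234).

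Lists of the machinery around the chain were counted in the same fit, beside a background of 12.4% of all genes called in MMS1. That was 4.34% higher and 8.08% lower. Of the 1647 bright genes 24.2% were called, 195 higher and 204 lower in number. The share called in MMS1 ran from 0% for carriers and channels to 30.0% for import genes. It was 27.6% for mitochondrial ribosome genes and 25.6% for assembly factors, near that of bright genes. No list was tested as a group. In RPMI8226 0 genes of any of these lists were called in the fit of all arrays. Without MMS1 sponge replicate 1 the RPMI8226 calls, all lower, were 1 each among the citric acid cycle genes, assembly factors, regulators, carriers and mitochondrially encoded genes, 2 among mitochondrial ribosome genes and 2 among genes for expression of mitochondrial DNA. Of 43 assembly factors for these complexes 4 rose and 7 fell in MMS1, or 3 and 7 without MMS1 sponge replicate 1, and 2 to 4 and 5 to 7 when 1 array was left out at a time. BCS1L, the chaperone that inserts the iron-sulfur protein into complex III, fell from 8.22, 8.14 and 8.15 to 7.40, 7.46 and 7.45, a change of -0.73 (SE 0.0952, adjusted p = 0.000262). UQCC1, also of complex III, fell by 0.62 (adjusted p = 0.00371). TMEM70, a factor for ATP synthase, and COA1 rose by 0.68 and 0.53 (adjusted p = 0.00156 and 0.00159). These 4 calls held without any 1 array.

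Cytochrome c itself, CYCS, which carries electrons from complex III to complex IV, rose in MMS1 from 10.88, 10.89 and 10.92 to 11.68, 11.37 and 11.48. The change was 0.61 (SE 0.105, adjusted p = 0.00206), and its difference between lines was -0.79 (adjusted p = 0.00777), both called without any 1 array. Of the 16 electron carrier and coenzyme Q genes COQ8A rose too, by 0.43 (adjusted p = 0.026), and PDSS1, which makes the coenzyme's tail, fell by 0.38 (adjusted p = 0.0233). COQ8A lost its call without any 1 MMS1 control array or without MMS1 sponge replicate 1 or 2 (adjusted p 0.0519 to 0.0931), and PDSS1 without MMS1 control replicate 2 or 3 or MMS1 sponge replicate 3 (0.0668 to 0.0952). In RPMI8226 PDSS1 had -0.34, not called (adjusted p = 0.155). Its average over both lines was -0.36 (adjusted p = 0.00672), called without any 1 array. Of 16 genes of the citric acid cycle and pyruvate dehydrogenase, MDH2 and IDH3A rose by 0.32 and 0.48 (adjusted p = 0.0464 and 0.047). MDH2 lost the call in 11 of the 12 fits without 1 array, all but that without MMS1 sponge replicate 1 (0.0538 to 0.166), and IDH3A in 11, all but that without MMS1 sponge replicate 3 (0.0539 to 0.139). DLAT had the smallest p of this list in RPMI8226, at -0.57, not called (adjusted p = 0.073). Its difference between lines was -0.85 (adjusted p = 0.0112), called without any 1 array. That of IDH3A was -0.78 (adjusted p = 0.0409), lost in 9 of the 12 fits (0.0528 to 0.0996).

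Of 76 mitochondrial ribosome genes 5 rose and 16 fell in MMS1, or 4 and 17 without MMS1 sponge replicate 1, with a median of -0.11. Without 1 array at a time the counts ran from 1 to 5 and from 7 to 17. MRPL35 fell by 0.91 (adjusted p = 8.58e-05) and MRPL32 rose by 0.72 (adjusted p = 0.000644), and both kept their call without any 1 array.

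Of 16 genes for expression of mitochondrial DNA, LRPPRC, SLIRP and TFB2M rose, by 0.46, 0.40 and 0.37, and FASTKD2 fell by 0.37 (adjusted p = 0.0235, 0.0167, 0.0403 and 0.0438). LRPPRC and SLIRP form a complex that stabilises mitochondrial messengers. LRPPRC stood at 10.02, 10.11 and 10.07 in MMS1 controls and at 10.80, 10.40 and 10.38 with the sponge, and at 10.58, 10.64 and 10.58 against 10.24, 10.15 and 10.12 in RPMI8226. The MMS1 call was lost without any 1 MMS1 control array for LRPPRC (adjusted p 0.0548 to 0.0837) and without MMS1 control replicate 1 or 2 or MMS1 sponge replicate 2 for SLIRP (0.0565 to 0.0716). TFB2M lost it in 9 of the 12 fits, all but those without RPMI8226 control replicate 1 or RPMI8226 sponge replicate 2 or 3 (0.0505 to 0.145), and FASTKD2 in 11, all but that without MMS1 sponge replicate 1 (0.0556 to 0.151). For LRPPRC and TFB2M the difference between lines passed too, at -0.89 and -0.73 (adjusted p = 0.00697 and 0.0123), also without any 1 array. In RPMI8226 FASTKD2 and ELAC2 had -0.37 and -0.68, not called (adjusted p = 0.154 and 0.0701). Averaged over both lines they had -0.37 and -0.46 (adjusted p = 0.00968 and 0.0122), called without any 1 array.

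Of 20 import genes 2 rose and 4 fell in MMS1, or 1 and 3 without MMS1 sponge replicate 1, and 1 to 2 and 2 to 3 when 1 array was left out at a time. CHCHD4, TIMM8B and TIMM22 fell, by 0.79, 0.71 and 0.42 (adjusted p = 0.000159, 0.000605 and 0.0207), and the outer membrane receptor TOMM20 rose by 0.64 (adjusted p = 0.00101). TIMM22 lost its call without MMS1 control replicate 1 or 2 or MMS1 sponge replicate 3 (adjusted p 0.0566 to 0.0977). In RPMI8226 it had -0.45, not called (adjusted p = 0.0962). Averaged over both lines CHCHD4, TIMM8B and TIMM22 had -0.51, -0.47 and -0.44 (adjusted p = 0.000664, 0.00188 and 0.00319). All were called without any 1 array. Of 10 carriers and channels 0 were called in MMS1 by limma, and VDAC3, SLC25A10 and SLC25A11 had an unadjusted p under 0.05 (0.0125, 0.0198 and 0.0267).

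Among 11 regulators known for these genes MYC and CREB1 fell in MMS1, by 0.41 and 0.47 (adjusted p = 0.0106 and 0.0319). MYC stood at 10.59, 10.48 and 10.57 in MMS1 controls and at 10.20, 10.15 and 10.04 with the sponge, and at 11.32, 11.36 and 11.43 against 10.87, 10.93 and 10.92 in RPMI8226. The RPMI8226 change of MYC, -0.47, did not pass (adjusted p = 0.0643), although the groups did not overlap in either line. CREB1 lost its MMS1 call without MMS1 control replicate 1 or 3 or MMS1 sponge replicate 2 or 3 (adjusted p 0.0628 to 0.124). In RPMI8226 CREB1 had -0.41, not called (adjusted p = 0.179). Averaged over both lines MYC and CREB1 each had -0.44 (adjusted p = 0.00126 and 0.00993), called without any 1 array. Transcripts of NRF1, GABPA, GABPB1 and YY1 were not called in MMS1.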

How the data were processed

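Per the labels' protocols, total RNA was purified on RNeasy columns, went through 2 rounds of linear amplification and was hybridised to Affymetrix arrays. The authors deposited 1 log2 signal per probe set and array, made with a summarization and scaling that are not given in the sources used here. They have a lower bound of 4, or 16 on the linear scale, and array medians of 5.80 to 5.90, so no further normalization was applied. Groups came from the sample titles, with 3 arrays each.

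Probe sets were named through the platform's annotation, with symbols updated by identifier to RefSeq's gene table (GRCh38.p14). Means of the 4 groups were estimated over the 12 arrays for 54613 probe sets in limma 3.58.1 (R 4.3.3), and 62 control probe sets were left out. Its residual degrees of freedom were 8, its prior had 4.92, and the median SE of a difference between 2 groups was 0.14. The number of arrays limits the precision. P-values are two-sided, with Benjamini-Hochberg adjustment within each comparison. The fit was tested on simulated data in which few probe sets were changed. A log2 change of 0.5 was called in 6 of 67 probe sets for MMS1 and in 11 of 67 for RPMI8226. A change of 1 was called in 56 and 64 of 67, and 5 and 8 of 54413 unchanged probe sets were called. A gene that was not called may thus still have changed by 0.5, and in fewer cases by 1. Tables and figures were made in Python 3.11.15.

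The members and lists were chosen with earlier results of these data known. Named are members called in a sponge comparison and up to 10 each way between the control groups. Also named are the 3 members of each complex with the smallest p in each line. Tissue-limited isoforms are named with their partners, and so are members whose probe sets disagree in direction where at least 1 was called. Genes named from the pathway lists are mostly among the 4 with the smallest p in a line. Not all such genes are named. The alternatives were quantile normalization, the mean over a gene's probe sets, only probe sets brighter than the median, only the 2 groups compared, a replicate block, a trended robust prior, subunits only, and leaving out each array.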

Additional observations from a re-analysis of the deposited data

Results flagged for a closer look

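For 10 of the respiratory chain genes the test of the difference between the sponge change in RPMI8226 and that in MMS1 passed (limma, adjusted p under 0.05), beside 5.90% of all genes. The difference was negative for UQCRB (-0.76), NDUFV2 (-0.75), NDUFV1 (-0.70), ATP5MC3 (-0.69), NDUFV3 (-0.62), ATP5MK (-0.55), COX7B (-0.52) and COX7C (-0.47), on the log2 scale. It was positive for NDUFB2-AS1 (0.61) and ATP5F1C (0.53). Of these, ATP5MC3 and NDUFB2-AS1 were called in neither line alone. The summed erythroid marker signal, most of it from HBE1 and HBZ, was lower with the sponge in both lines beside these differences (41582 to 43286 in MMS1 controls against 25464 to 26729, and 32537 to 33256 in RPMI8226 controls against 26651 to 27016), and its part in them was not tested.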

How the results depend on the processing

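No call turned its direction under any alternative. Of the 16 MMS1 calls 2 held in all alternatives, as did 1 of 5 for the average, 1 of 10 for the difference between lines and 4 of 9 between the control groups. Leaving out 1 array at a time gave 3 to 10 genes higher and 2 to 6 lower in MMS1, 0 to 2 lower in RPMI8226, 0 to 1 higher and 2 to 5 lower in the average, 0 to 3 positive and 5 to 8 negative differences, and 2 to 4 higher and 2 to 5 lower between the control groups. Averaging a gene's probe sets gave 6 higher in MMS1, 4 negative and 1 positive differences, and 3 lower between control groups. The 6 were ATP5MK, COX6A1, COX7C, NDUFB4, NDUFV2 and UQCRC1, of which COX6A1 and NDUFB4 were not called otherwise. The 5 then lower in MMS1 were NDUFA11, NDUFB3, SDHA, SDHAF1 and SDHAF2, of which SDHA and SDHAF2 were called before. With brighter probe sets only, and so fewer tested, there were 16 higher and 10 lower in MMS1, 6 lower in RPMI8226, 2 higher in the average and 20 negative differences. The trended robust prior gave 21 and 11 in MMS1, 11 lower in RPMI8226, 9 and 10 in the average, 27 negative differences, and 7 and 14 between control groups; the cause was not tested. Fitting only the 2 MMS1 groups gave 3 and 1, with fewer samples. Quantile normalization gave 2 higher in the average and 8 lower between control groups. Among subunits alone 1 difference was positive. Over all probe sets RPMI8226 had 107 calls, against 1268 among brighter probe sets, 1766 with the trended robust prior, 8 with 2 groups and 22 to 723 without 1 array, 723 being without MMS1 sponge replicate 1. MMS1 had 5635, against 3735 with 2 groups, 3296 of 33297 tested with probe sets averaged, and 3739 and 3730 without MMS1 control replicate 1 or 3. The difference between lines had 2786, against 4267 among brighter probe sets, 4649 with the trended robust prior, 1621 of 33297 with probe sets averaged and 1845 to 2797 without 1 array.

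Replicate numbers did not pair the arrays: residuals of same-numbered arrays of different groups correlated at -0.075 to 0.058 over 18 pairs. A replicate block gave 8 higher and 3 lower in MMS1, 2 lower in the average, 0 positive differences and 3 lower between control groups, and 32 calls over all probe sets in RPMI8226.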
